A study of Homo sapiens with 11 samples.

Results

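The genes described here build, bind or steer the cytoskeleton of the growing nerve cell process: 5 intermediate filament genes, 11 tubulins, 19 microtubule binders and 13 genes of growth cones and neuronal differentiation. They were taken by gene symbol from the probe annotation, 48 of the 20046 genes named on the arrays, and had 82 probes. A probe above background on every array of at least 1 group was found for 45 of them, among 10323 genes tested in all. DPYSL5 and NRN1 were above background on 0 of 11 arrays and ELAVL2 on 3, and these have no test. RNA was taken from SK-N-BE(2)-C, a single human neuroblastoma cell line with an amplified MYCN gene. Vorinostat, an inhibitor of histone deacetylases, was added at 500 nM, and control cells received its solvent DMSO. Illumina HT-12 v4 BeadChips, whose beads carry probes for human transcripts, measured 3 arrays of cells after 24 h of vorinostat, 3 after 24 h of DMSO, 2 after 6 d of vorinostat and 3 after 6 d of DMSO. The methods speak of 3 independent experiments for 24 h. No source used here says so for 6 d, where p-values measure only the spread between the arrays and this spread may be technical.

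Neurofilaments are the intermediate filaments of nerve cells and set the calibre of axons. Microtubules are tubes of alpha and beta tubulin pairs that serve as tracks for kinesin motors in the axon. Stathmins take tubulin out of use, while tau, doublecortin and other binding proteins hold microtubules together, and CRMP proteins carry guidance signals to them. Growth cones, the moving tips of axons, are rich in GAP43, BASP1 and MARCKS proteins under the membrane and read guidance cues through receptors such as ROBO1. Neuroblastoma cells derive from the sympathetic lineage and use much of this set, as neurite outgrowth is one form of their differentiation.

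Levels are given as log2 intensity after background correction and quantile normalization, and a difference of 1 is a factor of 2. Values of different probes are not comparable as amounts of RNA. Differences were tested with limma in 1 fit of the 4 groups, and the adjusted p is by Benjamini-Hochberg over all 10323 genes with a threshold of 0.05. As RNA of whole cultures was measured, fewer cells of one kind and less RNA per cell cannot be told apart. The mean raw intensity per array was 401 to 413 with 24 h of vorinostat and 272 to 302 with 24 h of DMSO, 283 and 338 with 6 d of vorinostat and 323 to 383 with 6 d of DMSO. Detected probes numbered 18302 to 18696, 15947 to 16878, 16346 and 16841, and 17444 to 18159 in these groups. At 24 h every group occupied its own chip, which leaves chip and treatment inseparable there, whereas the arrays of 6 d shared 1 chip. All 9 measured markers of sympathetic neuroblastoma were detected on 11 of 11 arrays, and the glial markers S100B, SOX10 and GFAP on 0, with ERBB3 on 3. Of 4 epithelial markers 0 were detected on all arrays, with CDH1 on 0 and EPCAM on 5.

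One feature of the arrays bears on every direction given for 6 d. Along the first principal component over all genes (37.2% of the variance) the arrays of 24 h vorinostat lay at 18.6 to 23.3 and those of 24 h DMSO at -30.9 to -24.3. Those of 6 d vorinostat lay at -18.4 and -12.1 and those of 6 d DMSO at 6.74 to 21.9, so that the treatments changed sides between the times. Over the 45 tested genes the mean absolute difference in log2 intensity was 0.43 between 24 h vorinostat and 24 h DMSO and 0.32 between 6 d vorinostat and 6 d DMSO. It was 0.25 between 6 d vorinostat and 24 h DMSO, the lowest of all 6 pairs of groups, and 0.30 between 24 h vorinostat and 6 d DMSO. Groups were used as labelled. Whether the labels of 6 d were exchanged was not tested, and such an exchange would turn every direction given for 6 d and alter each comparison that uses those arrays.

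After 24 h of vorinostat 11 of the 45 genes were higher and 12 lower, beside 16.5% higher and 11.1% lower (27.6% either way) among all genes tested. After quantile normalization the groups of genes went different ways. Of 11 tubulins 1 was higher and 8 were lower, and their median log2 fold change was -0.32, beside 0.045 for all genes. Of 18 microtubule binders 6 were higher and 2 lower (median 0.17), and of 11 growth genes 4 were higher and 1 lower (median 0.19). Of 5 intermediate filament genes 0 were higher and 1 was lower (median -0.019). Arrays of the groups did not overlap for 13 genes in the upward and 17 in the downward direction, beside 26.2% and 20.3% of all genes (46.4% either way). At 6 d 4 genes were higher and 4 lower with vorinostat, beside 4.0% and 7.01% of all genes (11% either way). These were 1 tubulin higher, 1 binder higher and 3 lower, 2 growth genes higher and 1 intermediate filament gene lower. Arrays of 6 d did not overlap for 10 genes upward and 9 downward, beside 16.9% and 21.7% of all genes (38.6% either way). With array brightness as a covariate, which went with the treatment at 24 h, 1 gene (TUBA4A) was higher and 0 were lower at 24 h by limma, where all genes tested gave 47 and 3. Scaling moved the split of higher and lower calls. With arrays scaled by the median of the probes that passed the filter it was 8 and 18 at 24 h and 5 and 2 at 6 d. With the median of all probes, a scaling chosen after seeing the data, it was 24 and 1 at 24 h and 0 and 10 at 6 d, as the median log2 fold change of all genes moved to 0.66 and -0.31. The 24 h medians of tubulins, binders, growth genes and intermediate filament genes moved too. They were -0.58, -0.027, 0.0085 and -0.24 with the median of passing probes, beside -0.11 for all genes. With the median of all probes they were 0.19, 0.74, 0.78 and 0.53.

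**Figure D1:**
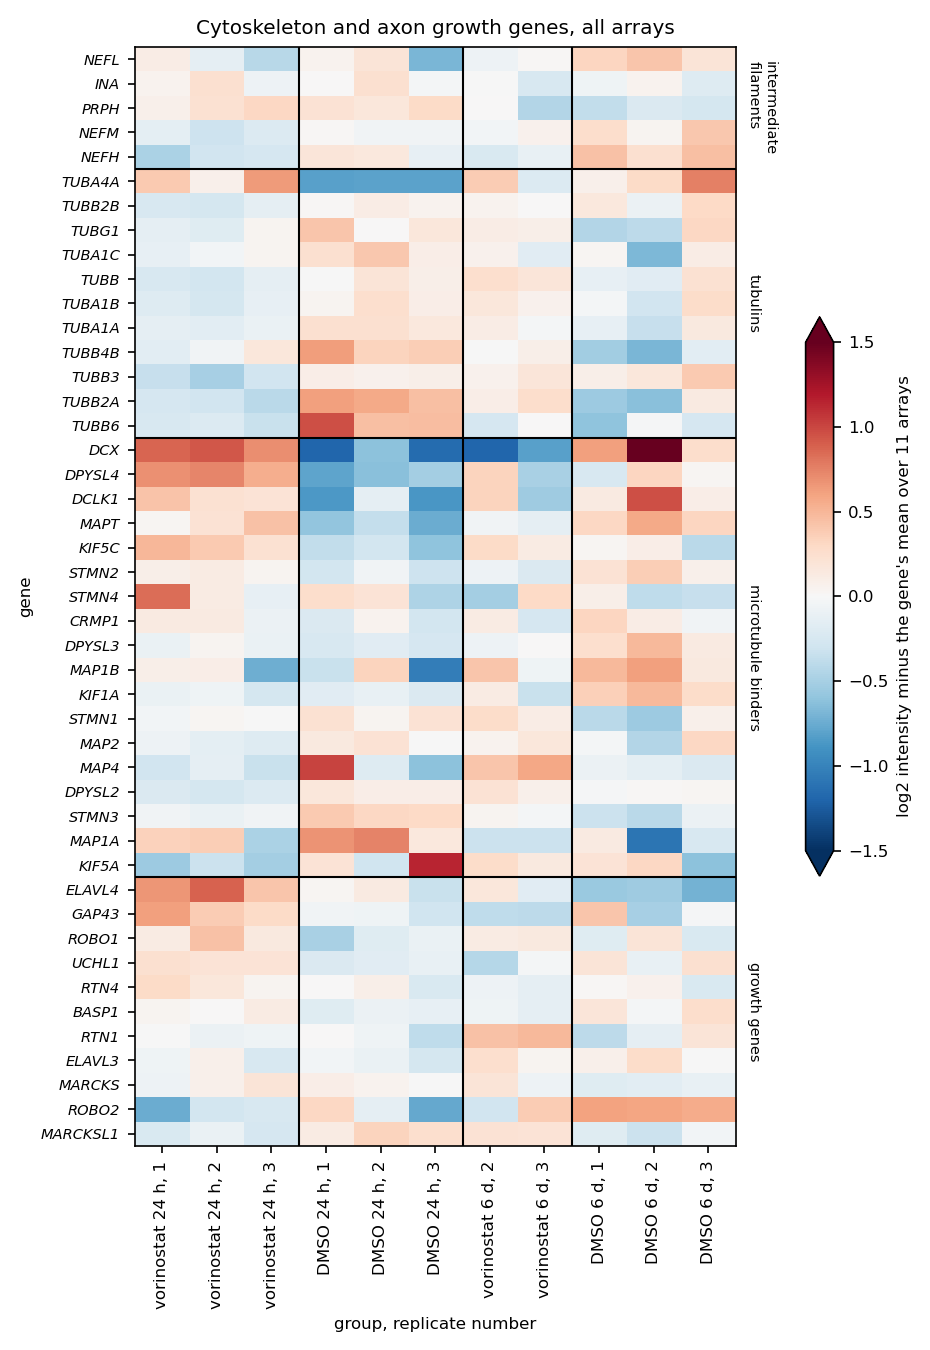
Heat map of the 45 tested genes (rows, in 4 groups, each sorted by its change at 24 h) on 11 arrays (columns, by group and replicate number). Colour is the log2 intensity minus the gene's mean over all arrays, red above and blue below it, cut at -1.5 and 1.5. After quantile normalization the tubulin block is mostly blue with 24 h of vorinostat and red with 24 h of DMSO (8 of its signs turned under scaling by the median of all probes), and DCX is red with 24 h of vorinostat and 6 d of DMSO and blue in the other groups.

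**Figure D2:**
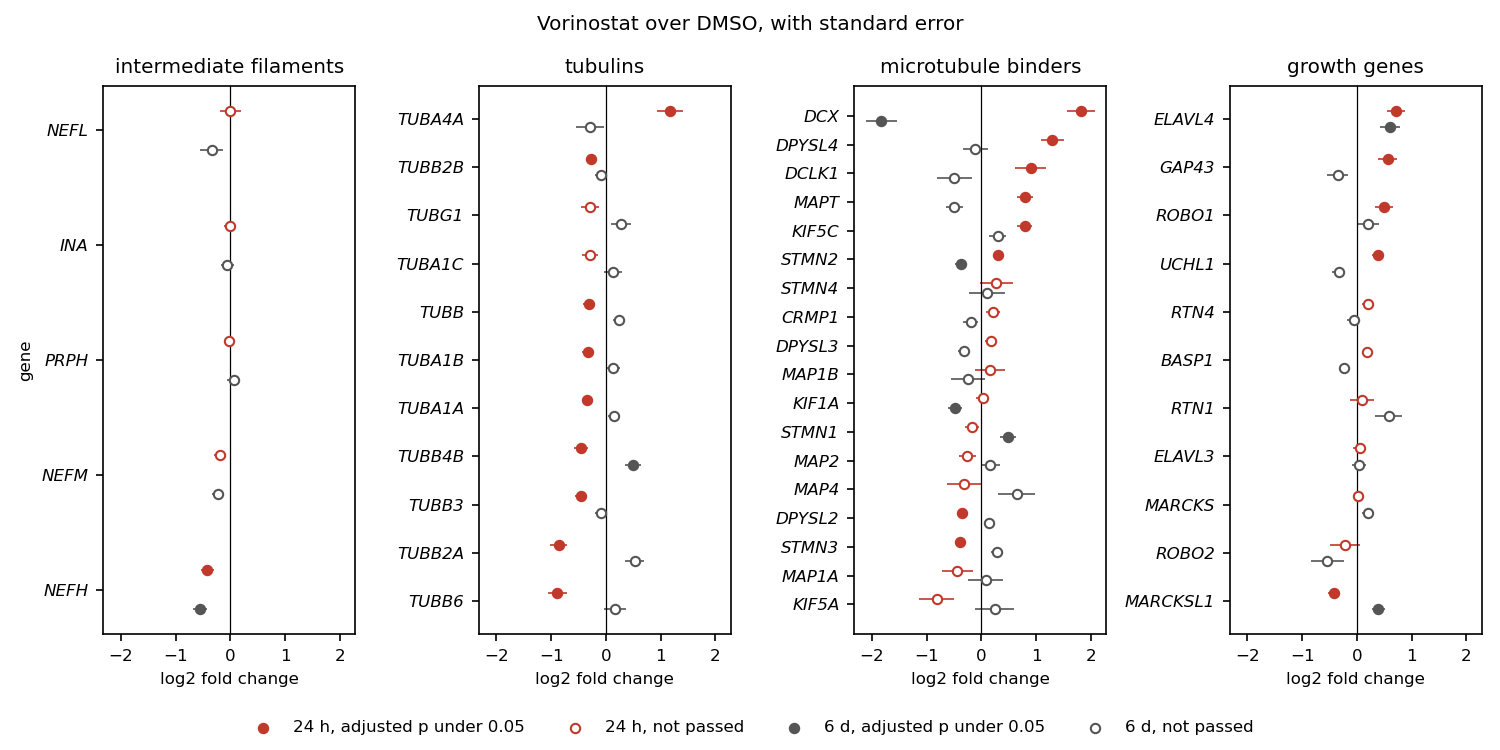
Log2 fold change of vorinostat over DMSO for each gene (points) with its standard error (bars), at 24 h in red and at 6 d in grey, in 4 panels for the groups of genes. Filled points passed an adjusted p of 0.05. NEFH lies left of 0 and ELAVL4 right of 0 at both times, while DCX lies at 1.82 at 24 h and -1.83 at 6 d.

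Among the intermediate filament genes NEFH alone passed the test in a vorinostat comparison, and it was lower at both times. NEFH, the heavy neurofilament subunit (probe ILMN_1705153), had log2 intensities of 8.86, 9.06 and 9.09 with 24 h of vorinostat, against 9.53, 9.50 and 9.22 with 24 h of DMSO. With 6 d of vorinostat it was at 9.12 and 9.24, against 9.79, 9.59 and 9.79 with 6 d of DMSO. At either time every vorinostat array lay below every DMSO array. Its log2 fold change was -0.42 (standard error 0.12, adjusted p = 0.0131 from limma) at 24 h and -0.54 (standard error 0.13, adjusted p = 0.0124 from limma) at 6 d. The 24 h call was lost without DMSO 24 h replicate 1 or without vorinostat 24 h replicate 1, and the 6 d call without vorinostat 6 d replicate 2. Under scaling by the median of all probes the 24 h value turned to 0.31.

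The other subunits of the same filaments showed smaller differences. NEFL, the light subunit, was the gene of this group nearest to 0 at 24 h, with 8.49, 8.25 and 7.97 under vorinostat and 8.43, 8.58 and 7.69 under DMSO, so that the arrays overlapped (log2 fold change 0.0022). At 6 d it stood at 8.31 and 8.40 with vorinostat and at 8.70, 8.79 and 8.58 with DMSO. These arrays did not overlap, but the change did not pass the test (log2 fold change -0.34, standard error 0.21, adjusted p = 0.344 from limma). NEFM, the medium subunit, had log2 fold changes of -0.19 at 24 h and -0.22 at 6 d, neither of which passed. INA, alpha-internexin, an early partner of neurofilaments, was nearest to 0 at 6 d, with 10.87 and 10.63 under vorinostat and 10.81, 10.92 and 10.68 under DMSO. PRPH, peripherin, the filament protein of peripheral neurons, had log2 fold changes of -0.019 at 24 h and 0.067 at 6 d. Its level in DMSO was lower at 6 d, with 11.87, 12.03 and 11.98, than at 24 h, with 12.46, 12.41 and 12.53 (log2 fold change -0.51, adjusted p = 0.00186 from limma). For all 5 genes 1 probe was on the array.

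With 24 h of vorinostat 10 of 11 tubulins had a negative log2 fold change, 8 of which turned positive under scaling by the median of all probes. TUBB6, a broadly expressed beta tubulin (probe ILMN_1699489), had the most negative value. Its log2 intensities were 7.35, 7.39 and 7.26 with vorinostat, against 8.56, 8.05 and 8.06 with DMSO (log2 fold change -0.89, standard error 0.17, adjusted p = 0.00138 from limma). TUBB2A, a beta tubulin of neurons (probe ILMN_2038775), had 8.45, 8.42 and 8.31 with vorinostat, against 9.32, 9.28 and 9.16 with DMSO (log2 fold change -0.86, standard error 0.16, adjusted p = 0.000924 from limma). TUBB3, the beta tubulin used as a marker of neurons (probe ILMN_1791726), had 10.95, 10.80 and 11.01 with vorinostat, against 11.40, 11.36 and 11.39 with DMSO (log2 fold change -0.46, standard error 0.09, adjusted p = 0.00181 from limma). In all 3 genes the vorinostat arrays lay below the DMSO arrays without overlap. TUBB4B, a widely expressed beta tubulin, was at 10.72, 10.82 and 11.05 with vorinostat, against 11.50, 11.20 and 11.24 with DMSO (log2 fold change -0.46, adjusted p = 0.0146 from limma). Smaller decreases passed for TUBA1A, the main alpha tubulin of young neurons (-0.34), for its relative TUBA1B (-0.32), for TUBB (-0.31) and for TUBB2B, which lies near TUBB2A (-0.27). TUBB2B was the tubulin nearest to 0, with 11.58, 11.56 and 11.69 under vorinostat and 11.84, 11.93 and 11.88 under DMSO.

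Of the tubulins called lower at 24 h, TUBB2A, TUBB3 and TUBB6 kept their calls without any single array. TUBA1B lost its call in all 6 such fits, TUBB2B in 5, TUBB in 4, TUBB4B in 3 and TUBA1A in 2. TUBA1C and TUBG1, the gamma tubulin of microtubule organizing centres, did not pass, at -0.29 each. A dimmer probe of TUBB6, at -0.46, did not pass either (adjusted p = 0.0974 over all probes from limma), nor did dimmer probes of TUBA1A (-0.40) and TUBB (-0.31). For TUBG1 a dimmer probe at -0.43 passed (adjusted p = 0.0294 over all probes from limma). Tubulin genes are alike in sequence, and whether a probe also binds a relative's transcript was not tested. Under scaling by the median of all probes the tubulin median was 0.19, below the 0.66 of all genes, and under scaling by the median of passing probes it was -0.58, below the -0.11 of all genes. With all probes the sign of TUBB2A (-0.14) and TUBB6 (-0.15) was negative and that of the 8 others turned.

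TUBA4A, an alpha tubulin found mainly in mature tissue, went the other way. It was above background on all arrays with 24 h of vorinostat, at 5.90, 5.59 and 6.15, and on none with 24 h of DMSO, where its signal was 4.70, 4.70 and 4.71. After quantile normalization TUBA4A was 2.25-fold higher with vorinostat (limma, adjusted p = 0.00151). This plain fold change used its own signal on each DMSO array, which was above that of the dimmest detected probe although TUBA4A itself was not detected there. The call of TUBA4A held in 18 of 18 alternative settings, but its size did not. Its log2 fold change was between 0.41 from the normalized table of the authors and 1.98 with array brightness as a covariate. At 6 d TUBA4A was at 5.89 and 5.31 with vorinostat and at 5.59, 5.80 and 6.27 with DMSO, overlapping values (log2 fold change -0.29, not past the test).

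With 6 d of vorinostat 8 of 11 tubulins had a positive log2 fold change, and 1 passed the test. The tubulin median was 0.15, and -0.022 under scaling by the median of all probes, where TUBA1B, TUBA1C and TUBB6 turned negative. TUBB4B was at 10.86 and 10.96 with vorinostat, against 10.35, 10.19 and 10.71 with DMSO. Both vorinostat arrays lay above all DMSO arrays (log2 fold change 0.49, standard error 0.14, adjusted p = 0.0378 from limma). It did not pass with a block for the replicate number (limma, adjusted p = 0.0614), nor without DMSO 6 d replicate 1 or 2 or either vorinostat array. TUBB2A had 8.81 and 8.97 with vorinostat, against 8.17, 8.08 and 8.84 with DMSO. There the third DMSO array lay between the vorinostat arrays, and the change did not pass (log2 fold change 0.53, adjusted p = 0.0704 from limma). TUBB3, at 11.36 and 11.48 with vorinostat and 11.39, 11.46 and 11.69 with DMSO, and TUBB2B, at 11.87 and 11.83 with vorinostat and 11.98, 11.74 and 12.12 with DMSO, both had -0.10 as their log2 fold change.

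**Figure D3:**
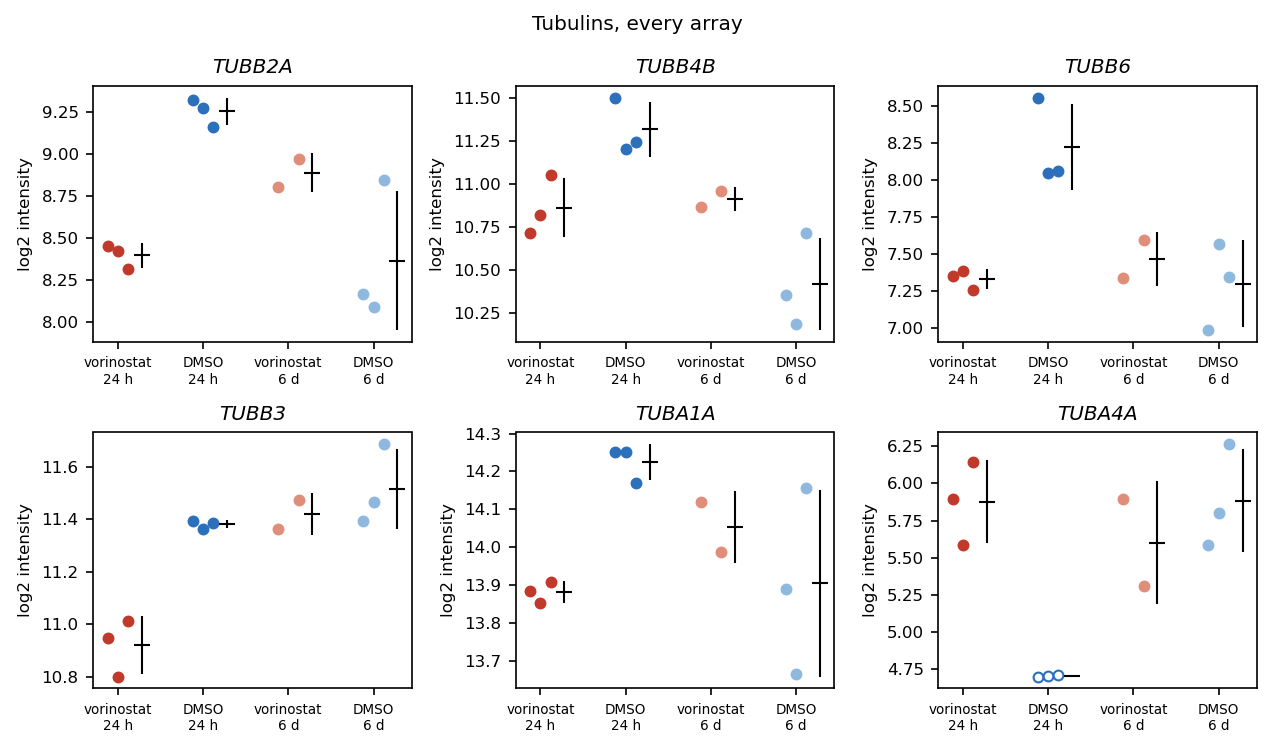
Log2 intensity of 6 tubulins on every array (points, open where the probe was not above background) in the 4 groups, with the mean and SD of each group in black. The vertical scale differs between panels. After quantile normalization TUBB2A, TUBB3, TUBB4B, TUBB6 and TUBA1A lie lower with 24 h of vorinostat than with 24 h of DMSO on every array (TUBB3, TUBB4B and TUBA1A turned under scaling by the median of all probes), and TUBA4A is open only with 24 h of DMSO.

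TUBB2A and TUBB2B lie close together on chromosome 6 and had 24 h log2 fold changes of -0.86 and -0.27, so the 250 bases before the start of each are shown (RefSeq, GRCh38.p14, 5′ to 3′ on the minus strand, chr6:3157545-3157794 for TUBB2A and chr6:3227654-3227903 for TUBB2B). Capitals mark 3 motifs searched on both strands, none overlapping another in these windows. They are the CCAAT box, spelled by its name, the GC box with the letters GGGCGG, and the TATA box with the letters TATAAA.
TUBB2A: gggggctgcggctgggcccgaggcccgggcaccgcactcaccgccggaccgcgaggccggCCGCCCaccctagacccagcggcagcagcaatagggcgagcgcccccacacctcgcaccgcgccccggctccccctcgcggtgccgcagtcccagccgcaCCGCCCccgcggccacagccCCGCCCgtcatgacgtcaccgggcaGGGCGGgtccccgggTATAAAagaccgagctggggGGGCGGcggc
TUBB2B: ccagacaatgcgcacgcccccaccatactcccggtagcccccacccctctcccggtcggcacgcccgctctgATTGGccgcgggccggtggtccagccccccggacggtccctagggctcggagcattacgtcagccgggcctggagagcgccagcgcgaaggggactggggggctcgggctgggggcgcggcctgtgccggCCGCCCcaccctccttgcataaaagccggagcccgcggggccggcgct
The window of TUBB2A holds 5 GC box matches and 1 TATA box match, that of TUBB2B 1 GC box and 1 CCAAT box match. A GC box match was present in 6 of 11 tubulin windows (54.5%), beside 42.3% of all 27305 windows of this length in the table. A CCAAT box match was found in 6 of 11 tubulin windows (54.5%), against 33.0% of all windows. At the ends of the range of 24 h changes, the window of TUBB6 (-0.89) held 0 GC box matches and that of TUBA4A (1.17) held 4. A match is a run of letters, and binding was not measured. Whether matches go with the changes was not tested.

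The microtubule binders held the largest changes of the whole set, and most of those that passed at 24 h were higher. DCX, doublecortin, which bundles microtubules in migrating and extending young neurons (probe ILMN_2361096), had log2 intensities of 8.34, 8.40 and 8.16 with 24 h of vorinostat, against 6.28, 6.86 and 6.32 with 24 h of DMSO. With 6 d of vorinostat it was at 6.28 and 6.65, against 8.08, 9.07 and 7.73 with 6 d of DMSO. The groups did not overlap at either time, and their order was opposite. At 24 h DCX was 3.52-fold higher with vorinostat (log2 fold change 1.82, standard error 0.26, adjusted p = 0.000106 from limma). At 6 d the log2 fold change was -1.83 (standard error 0.29, adjusted p = 0.00114 from limma), a level 3.55-fold lower with vorinostat. Both calls held without any single array. Among the settings run, DCX lost its 24 h call only with array brightness as a covariate (adjusted p = 0.285 from limma). It lost its 6 d call only by the methods' analysis of variance, run here on the quantile-normalized values of all genes tested. By that test 0 of all genes passed at 6 d (1533 did at an unadjusted p under 0.05). A second DCX probe was not above background on any array.

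As the gene with the largest change DCX is shown with the 250 bases before its start (RefSeq, GRCh38.p14, 5′ to 3′ on the minus strand of chrX:111412193-111412442), with the same letters in capitals.
DCX: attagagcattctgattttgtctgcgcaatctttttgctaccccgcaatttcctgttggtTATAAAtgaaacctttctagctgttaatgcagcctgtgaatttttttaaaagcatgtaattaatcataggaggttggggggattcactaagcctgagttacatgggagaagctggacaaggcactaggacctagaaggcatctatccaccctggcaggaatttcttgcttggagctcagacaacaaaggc
This window holds 1 TATA box match, a motif present in 11.1% of all windows, and no match to the other motifs.

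Among the other binders of the doublecortin and tau families MAPT and DCLK1 passed at 24 h. MAPT, the axonal microtubule protein tau (probe ILMN_2310814), was at 8.32, 8.51 and 8.73 with vorinostat, against 7.70, 7.93 and 7.54 with DMSO. All vorinostat arrays lay above all DMSO arrays (log2 fold change 0.80, standard error 0.14, adjusted p = 0.000635 from limma). At 6 d MAPT was at 8.24 and 8.16 with vorinostat, against 8.60, 8.86 and 8.61 with DMSO, in the opposite order without overlap (log2 fold change -0.49, adjusted p = 0.0554 from limma). A dimmer MAPT probe did not pass, at 0.22 for 24 h and -0.42 for 6 d. DCLK1, a kinase with doublecortin domains, was at 5.93, 5.74 and 5.71 with 24 h of vorinostat, against 4.65, 5.38 and 4.64 with DMSO, and 2 of 3 DMSO arrays were not above background (log2 fold change 0.90, adjusted p = 0.0268 from limma). The call did not hold in 5 of 6 fits without one array. Its other probe, of similar brightness, had -0.36, and without vorinostat 24 h replicate 1 that probe was the brighter one (-0.16). MAP2, of dendrites, had -0.26 at 24 h and MAP1A -0.44, and MAP1B 0.16 and MAP4 -0.32. None of these 4 passed at either time, but a MAP2 probe of nearly the same brightness did at 24 h (-0.52, adjusted p = 0.0211 over all probes from limma).

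The stathmins split. STMN2, the neuronal stathmin of growth cones (probe ILMN_1795679), was at 13.48, 13.51 and 13.43 with 24 h of vorinostat, against 13.11, 13.34 and 13.07 with DMSO, and at 13.31 and 13.17 with 6 d of vorinostat, against 13.60, 13.76 and 13.47 with DMSO. It was higher at 24 h (log2 fold change 0.30, adjusted p = 0.0231 from limma) and lower at 6 d (-0.37, adjusted p = 0.0279 from limma), without overlap at either time. A second, slightly dimmer STMN2 probe passed at 24 h (0.28, adjusted p = 0.0444 over all probes from limma). At 6 d this probe did not pass (-0.29, adjusted p = 0.104 over all probes from limma). Scaled by the median of passing probes, STMN2 had 0.032 at 24 h and -0.16 at 6 d and neither passed. The 24 h call was lost without replicate 1 or 3 of DMSO or replicate 1 or 2 of vorinostat, and the 6 d call without any array of that time other than DMSO 6 d replicate 3. STMN3 fell at 24 h (log2 fold change -0.40, adjusted p = 0.00302 from limma), with a mean of 12.04 ± 0.03 with vorinostat and 12.44 ± 0.05 with DMSO (SD, n = 3 each). At 6 d STMN3 had 0.28, which did not pass, and its 24 h value turned to 0.18 under scaling by the median of all probes. STMN1, the stathmin of dividing cells, was at 10.65 and 10.49 with 6 d of vorinostat, against 9.98, 9.83 and 10.45 with DMSO (log2 fold change 0.48, adjusted p = 0.0414 from limma). It did not pass with a block for the replicate number (limma, adjusted p = 0.0981) nor in 4 of 5 fits without one array, and a dimmer probe had 0.059. STMN4 was near background, above it on 3, 1, 1 and 2 arrays of 24 h vorinostat, 24 h DMSO, 6 d vorinostat and 6 d DMSO.

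CRMP genes and kinesins differed from one another as well. DPYSL4, or CRMP3 (probe ILMN_1792356), was at 7.20, 7.25 and 7.06 with 24 h of vorinostat, against 5.72, 5.89 and 6.01 with DMSO, a 2.46-fold higher level without overlap (log2 fold change 1.30, standard error 0.21, adjusted p = 0.000327 from limma). At 6 d its arrays overlapped, with 6.86 and 6.03 under vorinostat and 6.28, 6.84 and 6.54 under DMSO. DPYSL2, or CRMP2, which carries tubulin to growing microtubules, fell at 24 h (log2 fold change -0.35, adjusted p = 0.0023 from limma), and at 6 d had 0.14, which did not pass, while its 24 h value turned to 0.24 under scaling by the median of all probes. DPYSL3 had 0.17 at 24 h and -0.32 at 6 d, and CRMP1 0.21 and -0.19, none of which passed. A dim probe of CRMP1 was above background on 3 of 3 arrays with 24 h of vorinostat and on 0 of 3 with DMSO. At 6 d it was above background on 0 of 2 arrays with vorinostat and on 1 of 3 with DMSO. That probe had 0.91 at 24 h (adjusted p = 0.0284 over all probes from limma), but it entered the test only through the group where it is high. KIF5C, a kinesin heavy chain of neurons, averaged 9.15 ± 0.14 with 24 h of vorinostat and 8.36 ± 0.17 with 24 h of DMSO (SD, n = 3 each), and was called higher (log2 fold change 0.79, adjusted p = 0.000687 from limma). KIF1A, which carries synaptic vesicle precursors, was the binder nearest to 0 at 24 h, with 9.90, 9.94 and 9.74 under vorinostat and 9.83, 9.89 and 9.79 under DMSO. At 6 d KIF1A was lower, with 10.13 and 9.67 under vorinostat against 10.36, 10.49 and 10.28 under DMSO (log2 fold change -0.48, adjusted p = 0.0253 from limma), a call lost without DMSO 6 d replicate 1 or 2 or vorinostat 6 d replicate 3. KIF5A was not above background on any array with 24 h of vorinostat and on 1 with DMSO, and did not pass.

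**Figure D4:**
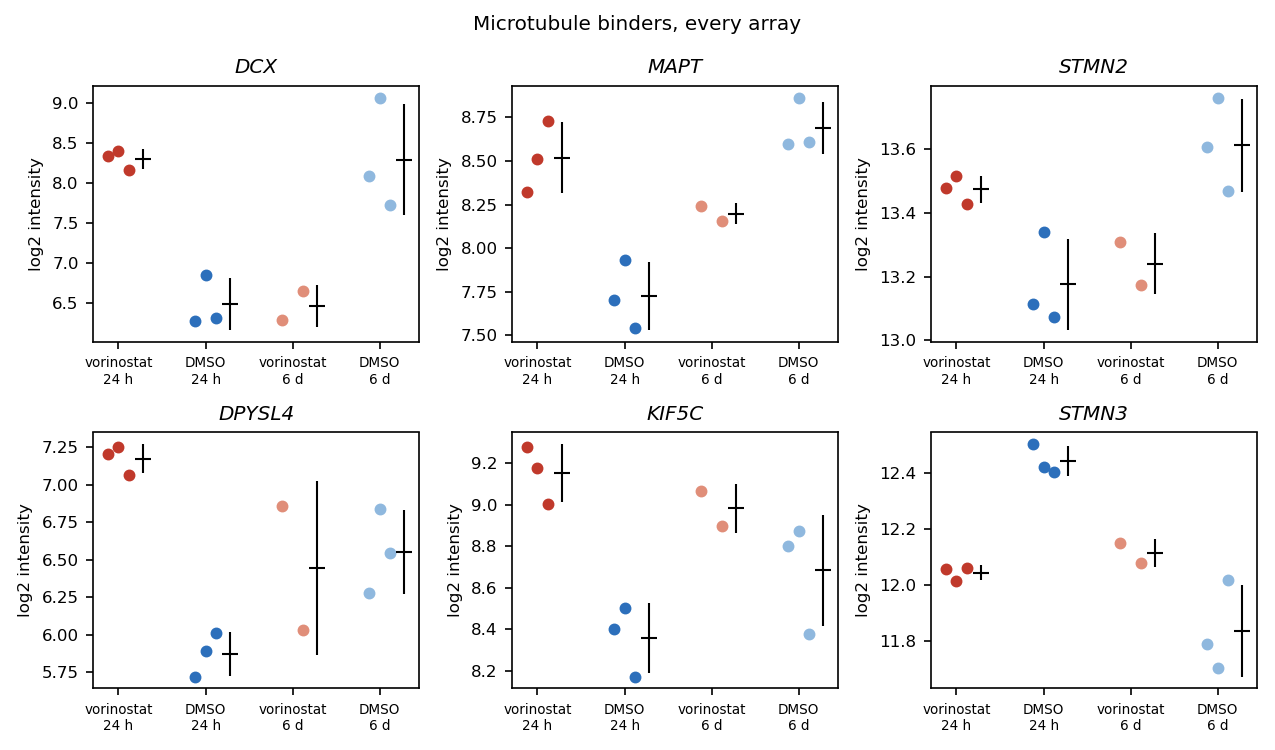
Log2 intensity of 6 microtubule binders on every array (points) in the 4 groups, with the mean and SD of each group in black. The vertical scale differs between panels. DCX, MAPT and STMN2 lie higher with vorinostat than with DMSO at 24 h and lower at 6 d on every array, and STMN3 shows the opposite order (it turned at 24 h under scaling by the median of all probes).

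Of the growth genes GAP43, ROBO1, UCHL1 and ELAVL4 were higher with 24 h of vorinostat and MARCKSL1 was lower. GAP43, the growth-associated protein of growth cones (probe ILMN_1794552), was at 9.98, 9.73 and 9.65 with vorinostat, against 9.31, 9.29 and 9.06 with DMSO (log2 fold change 0.56, standard error 0.17, adjusted p = 0.0213 from limma). ELAVL4, or HuD, an RNA-binding protein of neurons (probe ILMN_2065254), was at 8.44, 8.66 and 8.20 with vorinostat, against 7.81, 7.91 and 7.44 with DMSO (log2 fold change 0.71, standard error 0.16, adjusted p = 0.00387 from limma). ROBO1, a receptor for the guidance cue SLIT, was at 6.97, 7.28 and 6.99 with vorinostat, against 6.36, 6.66 and 6.74 with DMSO (log2 fold change 0.49, standard error 0.17, adjusted p = 0.0414 from limma). In each of these the vorinostat arrays lay above the DMSO arrays. UCHL1, a ubiquitin hydrolase abundant in neurons, averaged 12.69 ± 0.02 with vorinostat and 12.31 ± 0.05 with DMSO (SD, n = 3 each), and was higher (log2 fold change 0.38, adjusted p = 0.0135 from limma). UCHL1 had 0.17 and did not pass under scaling by the median of passing probes (limma, adjusted p = 0.32). The call of ROBO1 was lost in 5 of 6 fits without one array and that of GAP43 in 3, those without DMSO 24 h replicate 3 and vorinostat 24 h replicate 1 or 2.

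MARCKSL1, an actin-binding protein at the membrane (probe ILMN_1714433), was the growth gene that fell at 24 h. It was at 9.65, 9.78 and 9.62 with vorinostat, against 9.99, 10.20 and 10.13 with DMSO (log2 fold change -0.42, standard error 0.10, adjusted p = 0.0057 from limma), a value that turned to 0.27 under scaling by the median of all probes. At 6 d it was at 10.09 and 10.08 with vorinostat, against 9.70, 9.55 and 9.83 with DMSO, and thus higher (log2 fold change 0.39, standard error 0.11, adjusted p = 0.0363 from limma). ELAVL4 was higher at 6 d too, with 7.95 and 7.61 under vorinostat against 7.22, 7.24 and 7.07 under DMSO (log2 fold change 0.61, standard error 0.18, adjusted p = 0.0417 from limma). Under scaling by the median of all probes the 6 d values were 0.10 for MARCKSL1 and 0.24 for ELAVL4, and neither passed. Neither 6 d call held without DMSO 6 d replicate 1 or 2 or without vorinostat 6 d replicate 2. MARCKS, the relative of MARCKSL1, was the growth gene nearest to 0 at 24 h, with 11.81, 11.96 and 12.07 under vorinostat and 11.98, 11.93 and 11.87 under DMSO. BASP1, RTN1, RTN4, ROBO2 and ELAVL3 did not pass at either time, with log2 fold changes of -0.22 to 0.21 at 24 h and -0.54 to 0.58 at 6 d.

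**Figure D5:**
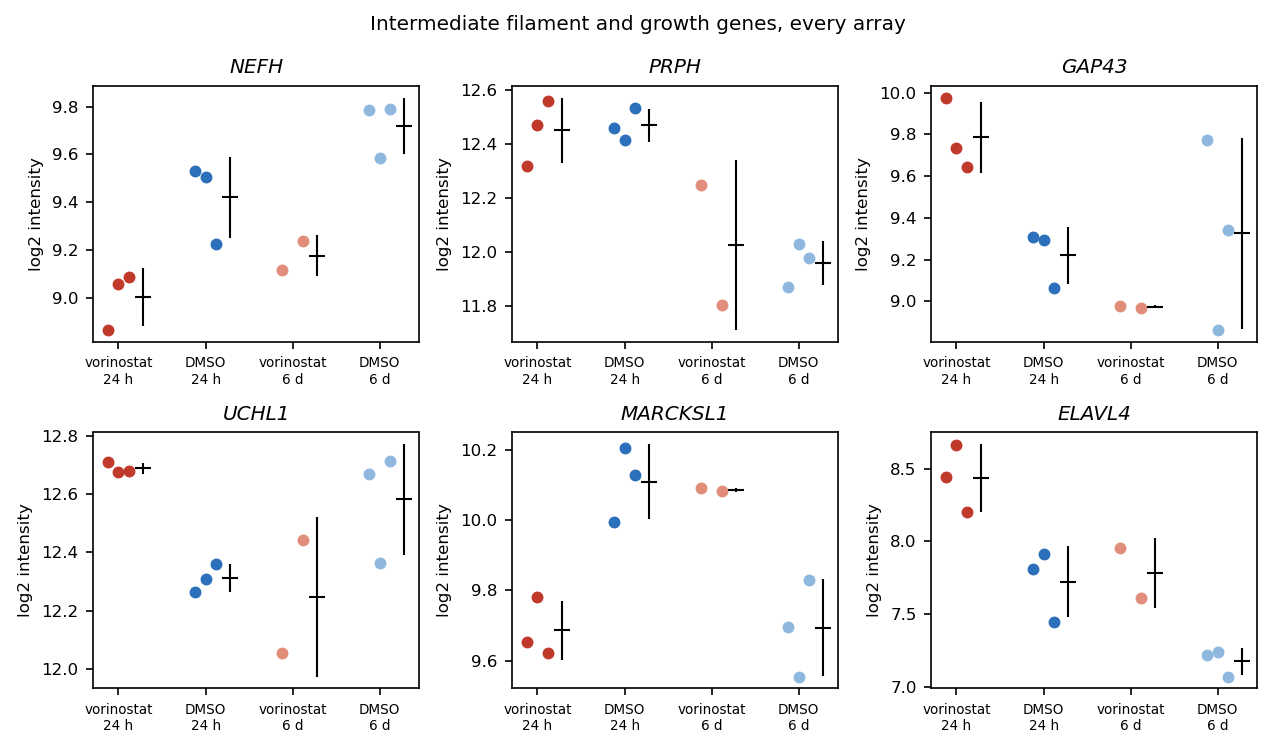
Log2 intensity of 2 intermediate filament genes and 4 growth genes on every array (points) in the 4 groups, with the mean and SD of each group in black. The vertical scale differs between panels. NEFH lies lower and ELAVL4 higher with vorinostat than with DMSO on every array of both times, and MARCKSL1 is lower at 24 h and higher at 6 d (NEFH and MARCKSL1 turned at 24 h under scaling by the median of all probes).

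For 21 of the 45 genes the difference between vorinostat and DMSO arrays was unequal at 6 d and 24 h, by the interaction term of the limma fit. The term includes the 24 h comparison, so drug and chip cannot be told apart in it, and it uses the 6 d labels as given. With array brightness as a covariate these calls were lost. Log2 fold changes were higher at the later time for 10 and lower for 11, beside 12.2% and 18.6% of all genes (30.8% either way). These counts were 19 and 4 with arrays scaled by the median of passing probes and 0 and 25 with that of all probes, which put the median of all genes at 0.18 and -0.97. For tubulins it was higher at 6 d for 6 and lower for 1 (TUBA4A), and the median difference was 0.49, beside -0.074 for all genes. For the binders it was higher for 3 and lower for 7 (median -0.41), for the growth genes higher for 1 and lower for 3 (median -0.27), and for the intermediate filament genes neither. The medians of tubulins, binders and growth genes moved with the scaling. They were 0.93, -0.10 and 0.064 with the median of passing probes and -0.22, -1.26 and -1.09 with that of all probes. DCX had the largest difference, at -3.64 (standard error 0.39, adjusted p = 7.67e-06 from limma). Of the genes called at both times, DCX and STMN2 were higher at 24 h and lower at 6 d, TUBB4B and MARCKSL1 lower at 24 h and higher at 6 d, ELAVL4 higher at both and NEFH lower at both. These opposite calls were 2 and 2 of 45 genes (4.44% each), beside 3.74% and 1.80% of all genes. The differences of NEFH (-0.13, adjusted p = 0.614 from limma) and ELAVL4 (-0.11, adjusted p = 0.777 from limma) between the times did not pass, which does not show that the changes were equal.

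DMSO cultures alone differed between the times in 23 of the 45 genes, 12 higher and 11 lower at 6 d than at 24 h, beside 17.1% and 12.9% of all genes (30.0% either way). Arrays did not overlap for 14 genes upward and 11 downward, beside 22.1% and 18.3% of all genes (40.4% either way). With scaling by the median of passing probes the calls were 7 higher and 14 lower, and with that of all probes 22 and 1. All genes shifted too, with a median log2 fold change of -0.10 and 0.41 under these scalings, beside 0.029 in the main fit. The DMSO arrays of the 2 times lay on different chips, which cannot be told apart from time, and both vorinostat comparisons use them. DCX was higher with 6 d of DMSO than with 24 h of DMSO by 1.81 (adjusted p = 0.000103 from limma), MAPT by 0.97 (adjusted p = 0.000122 from limma) and TUBA4A by 1.18 (adjusted p = 0.00131 from limma) on the log2 scale. TUBA4A was above background on 0 arrays with 24 h of DMSO, so the size of its change is uncertain. Lower were MAP1A by 0.93, TUBB6 by 0.92, TUBB4B by 0.90, TUBB2A by 0.89 and STMN3 by 0.61 on the log2 scale. Of 11 tubulins 1 was higher and 5 were lower, of 18 binders 8 were higher and 3 lower, of 11 growth genes 2 were higher and 2 lower, and of 5 intermediate filament genes 1 was higher and 1 lower. One of the higher growth genes, the guidance receptor ROBO2, was above background on 3 of 3 arrays with 6 d of DMSO and on 1 of 3 with 24 h of DMSO, and it entered the test through the group where it is high. DPYSL3 was higher by 0.51 and KIF1A by 0.54, and ELAVL4 was lower (log2 fold change -0.55). DCX in 6 d vorinostat cultures, at 6.47 ± 0.26 (SD, n = 2), lay close to its 24 h DMSO level of 6.48 ± 0.32 (SD, n = 3). Markers of other cell types moved between the DMSO times as well. Of the 3 tested mesenchymal markers, SNAI2 (-1.28) and VIM (-0.40) were lower at 6 d, while CD44 (0.75) did not pass. The 1 tested epithelial marker, EPCAM, was called higher (0.83) but was above background on 5 of all 11 arrays. It lay at 5.28 to 5.60 with 6 d of DMSO and at 4.98 or lower in the other groups. EPCAM may thus have entered the test only through the group where it is high. The part of these markers in the comparison was not tested.

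Other genes of the same processes were counted by list, to be read beside the 16.5% higher and 11.1% lower of all genes at 24 h and the 4.0% and 7.01% at 6 d. Of 25 tested further tubulins and tubulin chaperones or modifiers, 4 were higher and 5 lower at 24 h (median 0.018) and 1 and 1 at 6 d. VASH1, a protease that removes the end tyrosine of alpha tubulin, was higher at 24 h (1.64, adjusted p = 8.53e-05 from limma) and lower at 6 d (-0.91, adjusted p = 0.0299 from limma). Of 33 further microtubule regulators 3 were higher and 3 lower at 24 h and 1 and 4 at 6 d. CLIP3, a CAP-Gly domain protein, had 1.49 at 24 h, and MAP6, which stabilizes microtubules against cold, -1.20 at 6 d. Of 20 further motor proteins 4 were higher and 1 lower at 24 h and 2 and 0 at 6 d, among them the kinesin KIF13B at 1.46 at 24 h. Of 35 axon guidance genes 7 were higher and 1 lower at 24 h (median 0.27), while 1 was higher and 12 were lower at 6 d (median -0.36). EFNB3, a membrane-bound ephrin, had 2.12 at 24 h (adjusted p = 1.95e-06 from limma) and -0.95 at 6 d (adjusted p = 0.00947 from limma), and SEMA3A, a secreted repellent, 1.46 and -0.96. UNC5A, a netrin receptor, had -1.47 at 6 d. The counts of axon guidance genes moved with the scaling too. They were 5 higher and 5 lower at 24 h and 2 and 10 at 6 d with the median of passing probes, and 25 and 0 at 24 h and 0 and 15 at 6 d with that of all probes. With the median of all probes the tubulin and chaperone list had 17 and 0 at 24 h, the regulators 26 and 0 and the motors 19 and 0. The shares of all genes given above do not apply to these scalings. The median log2 fold change of all genes was 0.66 at 24 h and -0.31 at 6 d with the median of all probes. With that of passing probes it was -0.11 and 0.073. Counts over all genes with the median of all probes are given at the end.

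Of 7 further intermediate filament genes 2 were higher and 0 lower at 24 h, and 0 passed at 6 d by limma. NES, nestin of neural progenitors, was higher by 1.53 at 24 h (adjusted p = 1.77e-05 from limma), and VIM, vimentin, also a marker of mesenchymal cells, by 1.27. Beside this, the summed linear intensity of the 3 tested of 7 mesenchymal markers was 3308 to 3787 with 24 h of vorinostat and 1312 to 1824 with 24 h of DMSO, 1202 and 1483 with 6 d of vorinostat and 1163 to 1254 with 6 d of DMSO. Of the 3, VIM passed at 24 h and CD44 (-0.21) and SNAI2 (0.23) did not, and FN1, COL1A1 and PRRX1 were above background on 1 or 2 arrays and YAP1 on 0. The part of other cells in the changes of the cytoskeleton genes was not tested.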

How the data were processed

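The authors deposited probe intensities of Illumina HT-12 v4 arrays (not normalized) with a detection p-value for each probe. They also deposited a table of intensities normalized with Illumina BeadStudio (v4_r2 per the methods), whose algorithm is not stated and which served as an alternative. Both tables were paired by their values (48107 of 48107 probes). Background was corrected with limma's normexp from the detection p-values (offset 16), then log2 and quantile normalization over 11 arrays followed. A probe counted as detected with a detection p below 0.01 and an intensity above the array's background centre. The 13553 probes that were detected throughout 1 group or more were kept, and the brightest stood for its gene. In GEO's annotation 30113 probes had 1 gene, 8 had several and 17986 had none.

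All 4 groups entered 1 limma fit with an intensity trend (limma 3.58.1, R 4.3.3, Python 3.11.15), which was also tested on simulated data. Replicate numbers came from titles and array names. The descriptions of DMSO 6 d replicate 3 and vorinostat 6 d replicate 2 give replicate 1 instead, and results at 6 d that use the numbers rest on the titles. The r of deviations over genes between same-numbered arrays was 0.11, 0.20 and 0.25 at 24 h and 0.086 and 0.10 at 6 d. Across DMSO times it was -0.039 to 0.041. The main fit had no term for the replicate number, so its tests were unpaired, and a replicate block was run as an alternative. Alternatives were other scalings, background estimates and offsets, filters, probe rules, no trend, array brightness as covariate, a replicate block, fewer groups, the methods' analysis of variance and leaving out each array. That analysis of variance used the compared groups alone and the values normalized here, with Benjamini-Hochberg over all genes tested. The methods describe it for autophagy genes at 24 h, on the authors' normalized values. Vorinostat 6 d replicate 1 was not analysed here. Values on each array are printed for the called genes with the largest changes, up to 4 for each group of genes and comparison, plus 1 per group nearest to 0. At most 3 called genes are named from each further list. The members, lists and tests were chosen with earlier results of these data known. RefSeq promoters (GRCh38.p14) matched 39 of 48 genes. Array number limits the precision.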

Additional observations from a re-analysis of the deposited data

Results flagged for a closer look

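The change with vorinostat differed between 6 d and 24 h, by limma's test of the difference itself, for 21 of 45 genes (10 higher and 11 lower at 6 d), beside 30.8% of all genes. These were 19 and 4 with scaling by the median of passing probes and 0 and 25 with that of all probes, where the median of all genes was 0.18 and -0.97. As chip and treatment cannot be told apart at 24 h, drug and chip cannot be told apart in this difference. The values are log2 fold changes at 6 d minus those at 24 h, and they share the arrays named in the report. Among tubulins they were 1.39 for TUBB2A, 1.06 for TUBB6, 0.95 for TUBB4B, 0.54 for TUBB, 0.49 for TUBA1A, 0.45 for TUBA1B and -1.46 for TUBA4A. Among binders they were -3.64 for DCX, -1.41 for DPYSL4, -1.40 for DCLK1, -1.29 for MAPT, -0.67 for STMN2, -0.50 for KIF1A and -0.49 for DPYSL3, against 0.68 for STMN3, 0.65 for STMN1 and 0.49 for DPYSL2. Among growth genes they were -0.91 for GAP43, -0.71 for UCHL1, -0.42 for BASP1 and 0.82 for MARCKSL1. Adjusted p-values ran from 7.67e-06 (DCX) to 0.0474 (TUBA1B). For DCX, STMN2, TUBB4B and MARCKSL1 both changes were called, in opposite directions, and for the other 17 at most 1 was.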

How the results depend on the processing

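In each pair of counts below the first is higher and the second lower, over the 45 genes unless said otherwise. Arrays per group (2 or 3) limit all calls, and dim probes lie near background.

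At 24 h (11 and 12), genes called were 24 and 1 with scaling by the median of all probes, 6 and 7 without a filter on dim probes, and 1 and 0 with array brightness as a covariate. The lower count was 7 without the intensity trend, and the higher one 6 by the methods' analysis of variance. At 6 d (4 and 4) they were 0 and 10 with the median of all probes, 0 and 2 without the filter, 0 and 2 without the trend, 0 and 1 with brightness, 0 and 2 with only the compared groups in the fit, and 0 and 0 by the methods' analysis of variance (7 at an unadjusted p under 0.05). With the median of passing probes the lower count was 2. For the difference between the times (10 and 11) they were 19 and 4 with the median of passing probes, 0 and 25 with that of all probes, 6 and 7 without the filter, and 0 and 0 with brightness, and the higher count was 6 without the trend. For DMSO at 6 d against 24 h (12 and 11) they were 22 and 1 with the median of all probes, 7 and 6 with brightness and 2 and 1 by the methods' analysis of variance, and the higher count was 7 with the median of passing probes and 6 without the filter. In that comparison the median log2 fold change of all genes was 0.41 with the median of all probes and -0.10 with that of passing probes.

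Calls lost at 24 h were those of TUBA1A, TUBA1B, TUBB, TUBB2B, TUBB4B, STMN2, GAP43 and UCHL1 both without the filter and without the trend, with DCLK1 and ROBO1 also without the filter. By the methods' analysis of variance NEFH, TUBA1B, TUBB, TUBB4B, STMN2, DCLK1, GAP43, ROBO1 and ELAVL4 lost theirs, with the median of passing probes STMN2, DCLK1 and UCHL1, and with the mean of a gene's probes TUBB and DCLK1. At 6 d NEFH and DCX alone kept their calls without the filter, without the trend or with only the compared groups, and DCX alone with brightness. STMN2 and KIF1A lost theirs with the median of passing probes, TUBB4B, STMN1, MARCKSL1 and ELAVL4 with that of all probes, and STMN1 with the mean of probes.

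Leaving out 1 array gave 7 to 10 higher (7 without vorinostat 24 h replicate 1 or 2) and 7 to 11 lower (7 without DMSO 24 h replicate 1) at 24 h. At 6 d it gave 0 to 7 higher (0 without DMSO 6 d replicate 1 or 2 or vorinostat 6 d replicate 2) and 2 to 5 lower. It gave 6 to 13 higher and 8 to 12 lower for the difference, and 7 to 12 higher and 6 to 13 lower for DMSO.

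With the replicate number as a block, 2 genes were higher at 6 d, where TUBB4B (adjusted p = 0.0614) and STMN1 (adjusted p = 0.0981) lost their calls in limma. In the difference TUBA1A (adjusted p = 0.0501) and TUBA1B (adjusted p = 0.0833) lost theirs. The block changed no call of these genes at 24 h. Across the DMSO times, where the numbers only share a name, NEFL, CRMP1, KIF5C and UCHL1 gained and ROBO2 lost a call.

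Among genes called with or without it, scaling by the median of all probes turned the sign at 24 h of NEFM (0.42), NEFH (0.31), INA (0.62), PRPH (0.53), TUBA1A (0.026), TUBA1B (0.19), TUBB (0.27), TUBB2B (0.32), TUBB3 (0.17), TUBB4B (0.17), STMN1 (0.48), STMN3 (0.18), DPYSL2 (0.24) and MARCKSL1 (0.27). It turned the difference of PRPH (-0.65), TUBA1B (-0.21), TUBB (-0.22), TUBB2B (-0.61), TUBB6 (-0.030), STMN1 (-0.26), STMN3 (-0.094), DPYSL2 (-0.31), MARCKS (-0.59) and MARCKSL1 (-0.17). For DCLK1 the other probe stood in where detection on all arrays was required (-0.36 at 24 h, 0.75 for the difference, -0.15 for DMSO), without vorinostat 24 h replicate 1 (-0.16 and 0.54) and without DMSO 6 d replicate 2 (0.71 and -0.11 for the difference and DMSO). Leaving out 1 array thus gave DCLK1 -0.16 to 1.17 at 24 h, -1.88 to 0.71 for the difference and -0.11 to 1.28 for DMSO.

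Over all genes (1700 and 1146 at 24 h, 413 and 724 at 6 d) the counts were 6961 and 60, and 55 and 1589, with the median of all probes, and 47 and 3, and 40 and 137, with brightness. The cause of these shifts was not tested. Calls that held in every alternative run were TUBA4A at 24 h and MAPT and KIF1A for DMSO, with 0 of 8 at 6 d and 0 of 21 for the difference.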
